A study of Mus musculus with 6 samples.

Results

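The platelet-derived growth factor (PDGF) genes were examined in astrocytes sorted from the upper and the deep layers of the mouse somatosensory cortex. The 6 genes are the ligands Pdgfa, Pdgfb, Pdgfc and Pdgfd, the receptor gene Pdgfrb and the receptor-like gene Pdgfrl, taken from the 43383 rows of the deposited expression table by their symbols. The family was picked because the level of Pdgfd was already known to differ between the layers in these libraries, so the layer values of the 6 genes, with estimates from a fit of the whole table, are given as a description and no p-value is printed for them. All animals were 4-week-old male Aldh1l1-eGFP mice, in which the Aldh1l1 promoter drives green fluorescent protein in astrocytes. GFP-positive cells were sorted from dissected upper layers (II to IV, upper-layer astrocytes, ULAs) and deep layers (V and VI, deep-layer astrocytes, DLAs) of 3 brains, which gave 6 libraries, 1 per layer and brain. Neither group was treated. Layer I with its meninges was discarded, as was the corpus callosum, and tissue around the border of layers IV and V was lost, so the values cover most but not all of each layer.

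PDGFs are secreted dimers that act on receptor tyrosine kinases at the cell surface. PDGF-A and PDGF-B are the classical chains, whereas PDGF-C and PDGF-D carry a CUB domain that must be cut off by a protease before the growth factor domain can bind its receptor. PDGF-B and PDGF-D bind PDGF receptor beta, which is best known in the brain from the pericytes of capillaries, and PDGF-A made by neurons and astrocytes is a mitogen for oligodendrocyte precursors. Pdgfrl encodes a secreted protein whose immunoglobulin domains resemble those of the receptors, and it has no kinase domain.

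Pdgfd and Pdgfc are the family's CUB domain ligands, and their layer orders were opposite, so the DNA upstream of both genes is shown. The sequences are RefSeq promoter windows on GRCm38.p6, from the plus strand, cut so that none reaches past the first RefSeq start of the gene. The Pdgfd stretch is chr9:6168236-6168362 (127 bases) and the Pdgfc stretch is chr3:81036166-81036415 (250 bases). Capitals mark the letters TATAAA, searched on both strands.
Pdgfd: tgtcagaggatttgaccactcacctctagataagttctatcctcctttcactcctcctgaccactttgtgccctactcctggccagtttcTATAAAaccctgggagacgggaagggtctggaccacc
Pdgfc: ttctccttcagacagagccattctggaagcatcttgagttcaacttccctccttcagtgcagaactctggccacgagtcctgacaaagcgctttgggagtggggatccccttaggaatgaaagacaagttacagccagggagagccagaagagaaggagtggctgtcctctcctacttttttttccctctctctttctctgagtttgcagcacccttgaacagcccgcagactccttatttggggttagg
TATAAA begins 37 bases before the first RefSeq start of Pdgfd and 160 bases before the start at which its whole window ends. It is not in the Pdgfc window. It is found in 12.4% of the 32851 RefSeq windows of 250 bases. The letters GGGCGG, a GC box, were in neither gene's window, against 32.7% of all windows, and were in both windows of Pdgfa. The whole windows of Pdgfd and Pdgfc hold 3 CpG each, against a median of 6, while those of Pdgfa hold 19 and 28. Pdgfa, Pdgfc and Pdgfd were matched in the promoter table. These matches describe letters and were not tested for function.

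Values are RPKM, reads scaled to the length of the mRNA and to the depth of the library, so that levels can be compared between genes. Depth was between 24.5 and 26.7 M reads for ULAs and between 19.7 and 29.6 M reads for DLAs, as inferred from the smallest steps between RPKM values. All 11 astrocyte markers were detected, and Aldh1l1 itself lay between 203 and 271 RPKM in the 6 libraries. None of these 11 genes passed the limma test between the layers (adjusted p under 0.05), and 3 of the 11, Gja1, Slc1a3 and S100b, had an unadjusted p under 0.05, as did 16.4% of all rows in the fit. At the adjusted threshold 228 of the 13999 tested rows, 1.63%, passed in either direction, with ULAs the higher group in 100 and DLAs in 128 (138 and 103 after quantile normalization). The 6 libraries are bulk samples, in which fewer cells of a type and less RNA per cell cannot be told apart.

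Of the ligands, Pdgfd differed most between the layers. Pdgfd lies on chromosome 9 from 6168612 to 6377519 of the mouse build mm9 on the plus strand, with 7 exons. In ULAs of brains 1, 2 and 3 it was measured at 1.29, 1.45 and 2.08 RPKM. In DLAs of the same brains it was measured at 6.98, 6.23 and 15.2 RPKM. Every DLA library was thus above every ULA library, and the DLAs of brain 3 stood well above the other DLA libraries. The mean was 1.61 ± 0.418 RPKM (SD, n = 3) in ULAs and 9.47 ± 4.98 RPKM in DLAs. Within brains the deep/upper ratio was 5.41, 4.30 and 7.31, with a mean of 5.67 ± 1.52 (SD, n = 3). The ratio of the means was 5.89 with all brains and 4.82 without brain 3. The values rested on 57, 67 and 100 reads in ULAs and on 333, 220 and 807 reads in DLAs, as recovered from the steps. By exact Poisson intervals at 95%, which cover counting error only, the highest ULA value lay between 1.70 and 2.54 RPKM and the lowest DLA value between 5.44 and 7.12 RPKM. Among all tested rows, 9.82% had a lower mean than Pdgfd in ULAs and 53.7% in DLAs, so that Pdgfd moved from the low end of the detected mRNAs to the middle.

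On the log2(RPKM + 1) scale the limma estimate for Pdgfd was −1.92 (SE 0.17, ULAs minus DLAs). This was the 10th largest difference in size among the 13999 rows, whose median was −0.03 and whose middle 90% lay between −0.38 and 0.34. The scale understates the change of genes as low as Pdgfd in ULAs, and a pseudocount of 0.1 gave −2.40. Of the 5 members in the fit, 1, Pdgfd, was past the adjusted threshold, against 1.63% of all rows, and nothing is read from that count because Pdgfd's difference chose the family. Pdgfb did not reach the minimum mean of 1 RPKM and was not fitted.

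**Figure D1:**
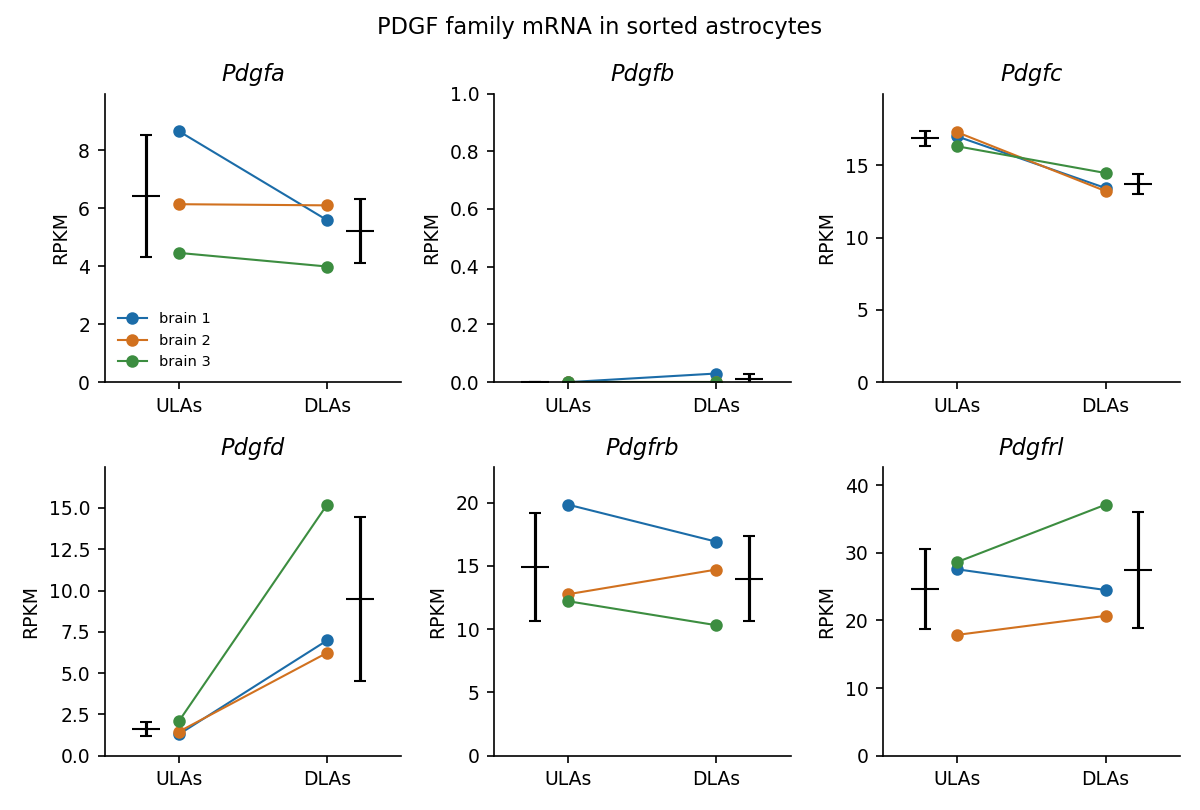
RPKM of the 6 genes (y axis, linear and from 0) in ULAs and DLAs, with 1 point per library, a line joining the libraries of each brain, and the mean ± SD of 3 libraries beside each group. Pdgfd lies between 1.29 and 2.08 in ULAs and between 6.23 and 15.2 in DLAs, Pdgfc is lower in DLAs in every brain, and the points of Pdgfa, Pdgfrb and Pdgfrl overlap between the layers.

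Pdgfc, the other CUB domain ligand, had the opposite order and a much smaller difference. It lies on chromosome 3 from 80840338 to 81017953 (mm9, plus strand, 6 exons). The ULA libraries of brains 1, 2 and 3 gave 17.0, 17.29 and 16.32 RPKM. The DLA libraries gave 13.43, 13.22 and 14.47 RPKM. The groups did not overlap, which was also the case for 15.9% of all tested rows, and they lay close together. The means were 16.9 ± 0.498 and 13.7 ± 0.669 RPKM (SD, n = 3 each), an upper/deep ratio of 1.23 ± 0.0942 within brains. Its log2 difference was 0.28 (SE 0.11), inside the middle 90% of all rows. Pdgfc had the smallest spread of the family between libraries of a layer, with a coefficient of variation of 2.95% in ULAs and 4.88% in DLAs, against 26.0% and 52.6% for Pdgfd. A row for an antisense transcript shares 147 exonic bases with Pdgfc at 1.23 to 2.59 RPKM, and since the library kit does not keep the strand, reads there cannot be assigned to either.

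Pdgfa, the ligand best known as a mitogen for oligodendrocyte precursors, lies on chromosome 5 from 139452929 to 139470907 (mm9, minus strand, 6 exons). It was measured at 8.66, 6.14 and 4.46 RPKM in ULAs of brains 1, 2 and 3. In DLAs it was measured at 5.59, 6.10 and 3.99 RPKM. The upper value was the higher one in each brain, by 1.55, 1.01 and 1.12 times, yet the groups overlapped and brain 3 was lowest in both layers. The means were 6.42 ± 2.11 and 5.23 ± 1.10 RPKM, and the log2 difference of 0.23 (SE 0.15) was within the spread between brains. Without brain 1 it was 0.07 (SE 0.23).

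Pdgfb, which endothelial cells use to recruit pericytes, lies on chromosome 15 from 79826306 to 79845238 (mm9, minus strand, 7 exons) and was at or near 0. It was listed at 0 in 5 of the 6 libraries and at 0.03 RPKM, or 3 reads, in the DLAs of brain 1. A count of 0 allows up to 0.0345 to 0.0519 RPKM (3 reads) in these libraries, so no difference between the layers was detectable. The 10 endothelial markers summed to 1.65 to 2.49 RPKM in ULAs and 1.01 to 4.68 RPKM in DLAs, and none had a mean of 1 RPKM.

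The make-up of the ligand mRNAs differed between the layers mainly through Pdgfd. The summed RPKM of the 4 ligands was 26.9, 24.9 and 22.9 in ULAs and 26.0, 25.6 and 33.7 in DLAs of brains 1, 2 and 3, so the sums overlapped. Pdgfd made up 4.79%, 5.83% and 9.10% of the sum in ULAs. In DLAs it made up 26.8%, 24.4% and 45.2%. The share of Pdgfc was 63.1%, 69.5% and 71.4% in ULAs and 51.6%, 51.7% and 43.0% in DLAs. Pdgfc was the most abundant ligand in every library except the DLAs of brain 3, where Pdgfd was ahead of it. The ratio of Pdgfc to Pdgfd was 13.2, 11.9 and 7.85 in ULAs and 1.92, 2.12 and 0.952 in DLAs. Pdgfa held between 19.5% and 32.1% in ULAs and between 11.9% and 23.9% in DLAs.

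**Figure D2:**
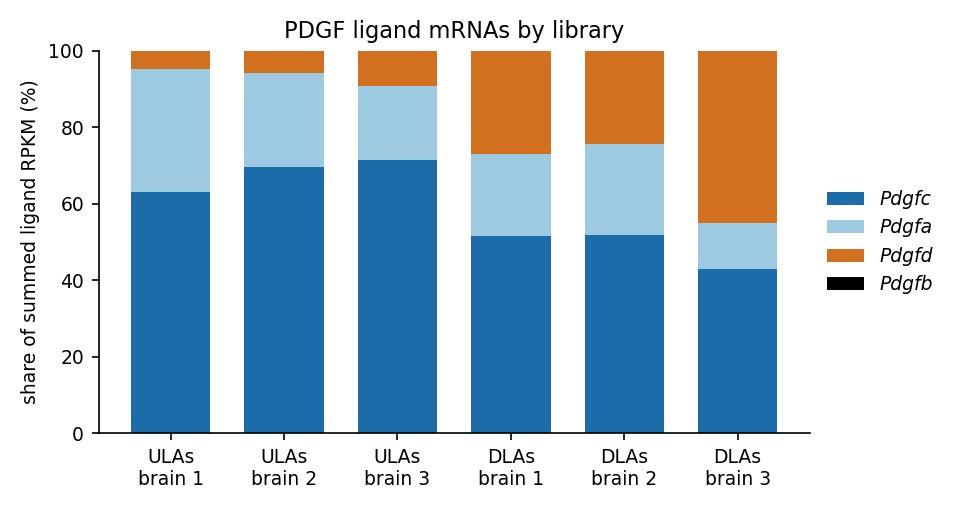
Share of each ligand in the summed RPKM of Pdgfa, Pdgfb, Pdgfc and Pdgfd (y axis, percent) in each of the 6 libraries (x axis, layer and brain). The Pdgfd share is between 4.79% and 9.10% in ULAs and between 24.4% and 45.2% in DLAs, and Pdgfb is too low to be seen.

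Pdgfrb, the receptor of PDGF-B and PDGF-D, lies on chromosome 18 from 61204804 to 61244721 (mm9, plus strand, 23 exons). It was measured at 19.84, 12.76 and 12.21 RPKM in ULAs of brains 1, 2 and 3. In DLAs it was measured at 16.91, 14.71 and 10.31 RPKM. The groups overlapped throughout, with brain 1 highest and brain 3 lowest in both layers, and the upper value was higher in 2 of 3 brains. The means were 14.9 ± 4.26 and 14.0 ± 3.36 RPKM, with a log2 difference of 0.08 (SE 0.13). Each value rested on 1566 to 2627 reads, so counting error was small beside the spread between brains. The layer differences of Pdgfrb and of its ligand Pdgfd were not tested against each other.

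Since Pdgfrb is a defining gene of pericytes, the markers of mural cells (pericytes and smooth muscle cells) are given beside it. The 13 mural markers together summed to 6.98, 5.66 and 6.28 RPKM in ULAs and to 5.07, 4.75 and 4.18 RPKM in DLAs, less than Pdgfrb alone in every library. Of the defining pericyte genes, Abcc9 was at 0 in all 6 libraries, Kcnj8 was at most 0.02 RPKM and Anpep at most 0.01 RPKM. Rgs5 was measured at 1.98, 2.06 and 2.70 RPKM in ULAs and 1.01, 0.75 and 0.93 RPKM in DLAs (log2 difference 0.77, SE 0.16, adjusted p = 0.0455, limma). It was the only 1 of the 2 mural markers tested that passed, against 1.63% of all rows. The other, Notch3, was at 1.40 to 2.89 RPKM. The markers of fibroblasts, which also express Pdgfrb, summed to 3.11 to 4.11 RPKM in ULAs and 4.99 to 6.34 RPKM in DLAs. Most of that sum was Col1a1 (2.49 to 5.66 RPKM, not past the threshold), and Col1a2 came next at 0.58 to 1.12 RPKM. Col3a1 and Slc6a13 were at 0 in all 6 libraries, and Dcn, Lum, Ogn and Igf2 were at most 0.09 RPKM.

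Pdgfrl was the most abundant of the 6 mRNAs in both layers by mean. It lies on chromosome 8 from 42011587 to 42076124 (mm9, plus strand, 6 exons). The ULA libraries of brains 1, 2 and 3 gave 27.55, 17.86 and 28.63 RPKM. The DLA libraries gave 24.49, 20.67 and 37.11 RPKM. The groups overlapped, brain 2 was lowest in both layers, and the deep value was higher in 2 of 3 brains. The means were 24.7 ± 5.93 and 27.4 ± 8.60 RPKM, and the log2 difference was −0.13 (SE 0.12). Pdgfrl exceeded Pdgfrb in every library, by 1.39, 1.40 and 2.34 times in ULAs and by 1.45, 1.41 and 3.60 times in DLAs, most in brain 3 of both layers. An antisense cDNA clone shares 596 exonic bases with Pdgfrl at 3.06 to 5.28 RPKM, and reads there cannot be assigned to a strand.

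In ULAs the order of mean levels was Pdgfrl, Pdgfc, Pdgfrb, Pdgfa, Pdgfd and Pdgfb. In DLAs it was Pdgfrl, Pdgfrb, Pdgfc, Pdgfd, Pdgfa and Pdgfb. Pdgfc and Pdgfrb, neighbours in both orders, overlapped in both layers, as did Pdgfc and Pdgfd in DLAs, so these orders did not exceed the spread between libraries. In DLAs every value of Pdgfd was above every value of Pdgfa, although 6.23 and 6.10 RPKM in brain 2 were nearly equal, and in ULAs every value of Pdgfa was above every value of Pdgfd. The mRNA lengths behind these values are 1015 bases for Pdgfa, 3512 for Pdgfc, 1795 for Pdgfd, 5413 for Pdgfrb and 1533 for Pdgfrl. The longest GENCODE transcripts have 2060, 3521, 3131, 5423 and 2069 bases, so for Pdgfa, Pdgfd and Pdgfrl the level per base depends on the transcript taken. Dividing by another length scales both layers alike, but which transcripts each layer uses was not tested.

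**Figure D3:**
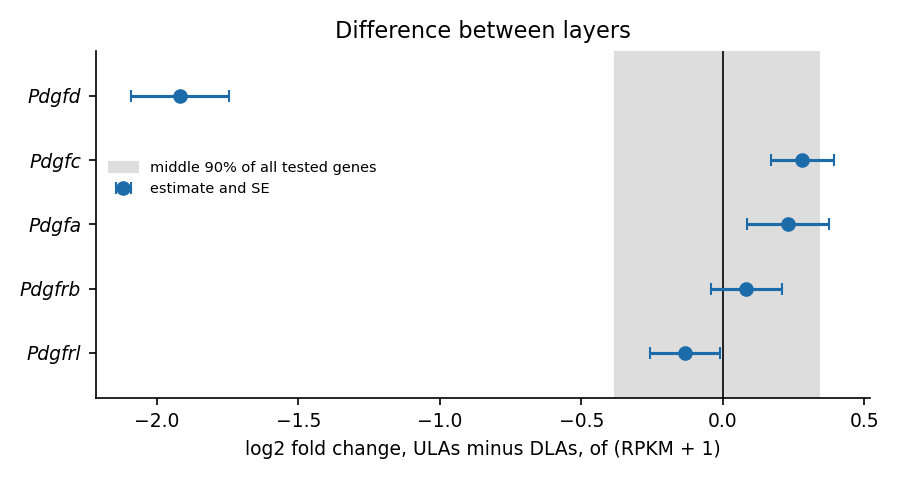
Estimated log2 difference of (RPKM + 1) between ULAs and DLAs (x axis, positive where ULAs are higher) for the 5 fitted genes, with the SE as bars. The grey band spans the middle 90% of the 13999 tested rows, −0.38 to 0.34, and Pdgfd at −1.92 is the only gene outside it.

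The transcripts of other cells moved with Pdgfd in part. The 9 oligodendrocyte genes summed to 76.5, 66.8 and 113 RPKM in ULAs and to 127, 143 and 154 RPKM in DLAs. The 8 that were tested were all higher in DLAs by estimate. Of these, 6 passed the threshold (Mbp, Mog, Mag, Mobp, Mal and Opalin), against 1.63% of all rows in either direction. The deep/upper ratio of the sums was 1.66, 2.15 and 1.36 in brains 1, 2 and 3. Cnp, the most abundant of the 9, did not pass, and without it the sums were 22.9, 17.4 and 45.6 RPKM in ULAs and 58.1, 68.1 and 87.3 RPKM in DLAs, with ratios of 2.53, 3.92 and 1.91. The ratio of Pdgfd was lowest in brain 2, where the oligodendrocyte ratio was highest with and without Cnp. The oligodendrocyte sums did not overlap between the layers, and that of the ULAs of brain 3 (113 RPKM) came nearest to that of the DLAs of brain 1 (127 RPKM), with Pdgfd at 2.08 against 6.98 RPKM. Single genes that passed did overlap, namely Mag, Mal, Mog and Opalin. Mog was at 8.37 RPKM in the ULAs of brain 3 and at 6.76 RPKM in the DLAs of brain 1. With 3 brains, whether Pdgfd follows the oligodendrocyte genes was not tested. Of the 7 oligodendrocyte precursor genes Olig1 and Olig2 were tested and did not pass, although the groups of Olig2 did not overlap (log2 difference −0.86). The sums were 85.7 to 96.7 RPKM in ULAs and 97.4 to 134 RPKM in DLAs, and most of them was Olig1 (80.0 to 125 RPKM). Gpr17, Sox10, C1ql1, Lhfpl3 and Neu4 were each at most 0.75 RPKM.

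Haemoglobin mRNA, which comes from red blood cells, was also higher in DLAs. The haemoglobin rows Hbb-b1, Hbb-b2 and Beta-s, near-identical copies between which reads may have been split, summed to 0.37, 0 and 0.98 RPKM in ULAs and to 14.5, 14.8 and 74.8 RPKM in DLAs, highest in the DLAs of brain 3 as for Pdgfd. All 3 passed the threshold as higher in DLAs, against 1.63% of all rows in either direction. The other red blood cell marker found in the table, Alas2, did not pass. The part of oligodendrocyte or blood transcripts in the Pdgfd difference was not tested.

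**Figure D4:**
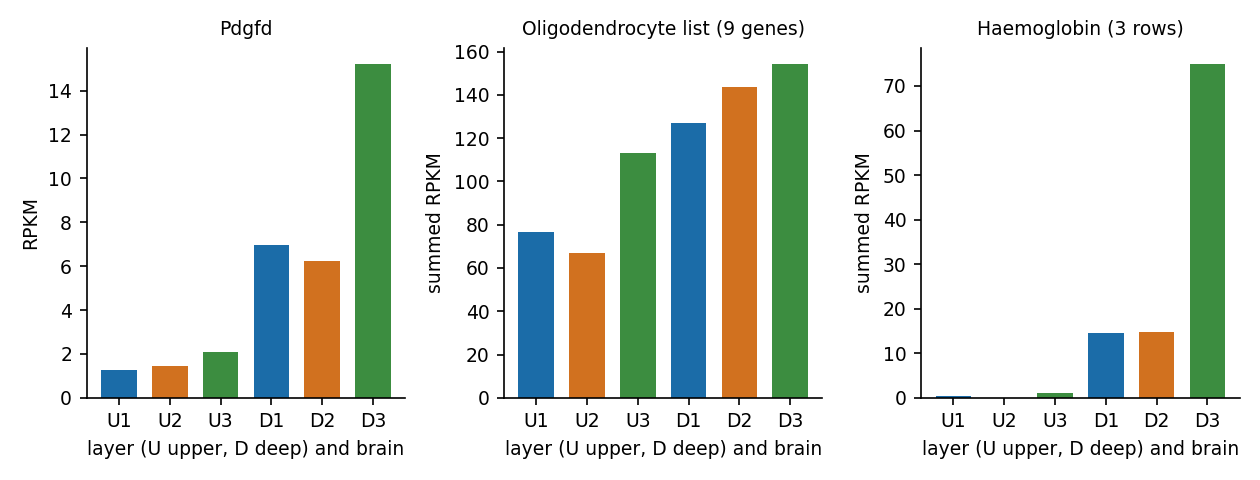
Bars give the RPKM of Pdgfd, the summed RPKM of 9 oligodendrocyte genes and the summed RPKM of 3 haemoglobin rows in each library (U upper, D deep, with the brain number), each on its own linear axis from 0. The DLAs of brain 3 are highest in each panel, at 15.2, 154 and 74.8, and in each panel every DLA library is above every ULA library.

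The rows whose profile over the 6 libraries was most like that of Pdgfd included the same haemoglobin. Likeness was Pearson's r of log2(RPKM + 1) among 7910 RefSeq rows with a mean of at least 5 RPKM, over 6 libraries that share brains and layers, and it is given as a description. For Pdgfd the first 5 were Beta-s (r = 0.995), Ndufs3 (0.992), a subunit of respiratory complex I, Blzf1 (0.988), Gm2115 (0.987) and Gss (0.985), which encodes glutathione synthetase. Beta-s went from 0 to 0.98 RPKM in ULAs to 10.1 to 44.1 RPKM in DLAs, while Ndufs3 moved between 88.3 and 91.0 RPKM in ULAs and between 99.7 and 108 RPKM in DLAs, so likeness in shape went with very different sizes of change. Pdgfrb was most like Nfe2l1 (0.994), Fntb (0.987), Mrps30 (0.987), Hhipl1 (0.984) and Skiv2l (0.983). Pdgfa was most like Rrbp1 (0.994), Atxn2l (0.992), Clic1 (0.990), Rhbdf1 (0.985) and Smarcc2 (0.981).

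The mRNAs of proteins that process or bind PDGFs differed in a few members. Of the 16 genes listed, 10 reached a mean of 1 RPKM. Of these, 2 passed as higher in ULAs, 1 passed as higher in DLAs and 7 did not pass, against 1.63% of all rows past the threshold. The median log2 difference was 0.08 against −0.03 over all rows. Plat, tissue plasminogen activator, which can release active PDGF-C from its CUB domain, was at 84.0, 71.9 and 52.8 RPKM in ULAs and 53.6, 54.4 and 30.4 RPKM in DLAs. The groups overlapped, since the ULAs of brain 3 lay below 2 DLA libraries, and within brains ULAs were higher in 3 of 3 (log2 difference 0.60, SE 0.11, adjusted p = 0.0238, limma). That call did not hold when brain was dropped as a term (adjusted p = 0.46), without brain 1 (0.0886) or with no filter (0.339). A2m, alpha-2-macroglobulin, a plasma protease inhibitor that binds PDGF, was at 5.81, 5.25 and 6.06 RPKM in ULAs and 3.09, 3.14 and 3.24 RPKM in DLAs. The groups did not overlap (log2 difference 0.69, SE 0.13, adjusted p = 0.0331, limma). The call did not hold without brain 1 (adjusted p = 0.15) or with brain dropped as a term (0.0957). It was also lost after a correction for mRNA length (0.0741) and with no filter (0.339).

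Sparc, a matrix protein that binds PDGF-B, was at 19.5, 16.9 and 24.9 RPKM in ULAs and 44.6, 36.0 and 42.1 RPKM in DLAs, with every DLA library above every ULA library (log2 difference −0.98, SE 0.12, adjusted p = 0.00346, limma). The call of Sparc did not hold with no filter (adjusted p = 0.3). The study picked Sparc on these same libraries, so its direction is no independent evidence. Serpine2, an inhibitor of serine proteases such as the plasminogen activators, was the most abundant of the list at 854 to 1195 RPKM and did not pass. The proteases that activate PDGF-D, Plau (urokinase) and St14 (matriptase), were at most 0.04 and 0.06 RPKM in these cells.

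Downstream of the receptors, none of the 23 receptor signalling genes passed. Their log2 differences lay between −0.18 and 0.35, with a median of 0.06, and 2 of the 23 had groups that did not overlap, against 15.9% of all rows. An unadjusted p under 0.05 was found for 1 of the 23 (Src, log2 difference 0.28, SE 0.12), against 16.4% of all rows. The most abundant were Slc9a3r1, a scaffold that binds PDGF receptors, at 237 to 342 RPKM, Plcg1 (phospholipase C gamma) at 26.9 to 38.6 RPKM and the kinase gene Fyn at 21.9 to 37.0 RPKM. The list of genes that growth factors induce had 11 of 18 genes tested, and none passed, with a median of −0.05. Its most abundant members were the phosphatase genes Dusp6 (84.4 to 165 RPKM) and Dusp1 (40.6 to 92.0 RPKM) and the ligand gene Hbegf (29.9 to 37.2 RPKM), each overlapping between the layers. Without brain 3, Dusp6 passed (log2 difference −0.37, adjusted p = 0.0468).

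The vascular endothelial growth factors (VEGFs) are the nearest relatives of the PDGFs. The list used here also holds the receptor genes Flt1, Kdr and Flt4, and Csf1, Csf1r and Kitl, which are not VEGF genes. Of the 11 genes of this list, 7 were tested, and 1 passed, against 1.63% of all rows, with a median of −0.01. Vegfb was at 27.1, 15.8 and 28.6 RPKM in ULAs and 57.6, 22.5 and 56.6 RPKM in DLAs. It was higher in DLAs in 3 of 3 brains, although the DLAs of brain 2 lay below 2 ULA libraries (log2 difference −0.84, SE 0.13, adjusted p = 0.0114, limma). The call did not hold when brain was dropped as a term (adjusted p = 0.474) or after a correction for mRNA length (0.0609). It was also lost with no filter (0.339). Vegfa, the most abundant at 159 to 189 RPKM, and Csf1, the third at 8.11 to 15.4 RPKM, had overlapping groups.

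**Figure D5:**
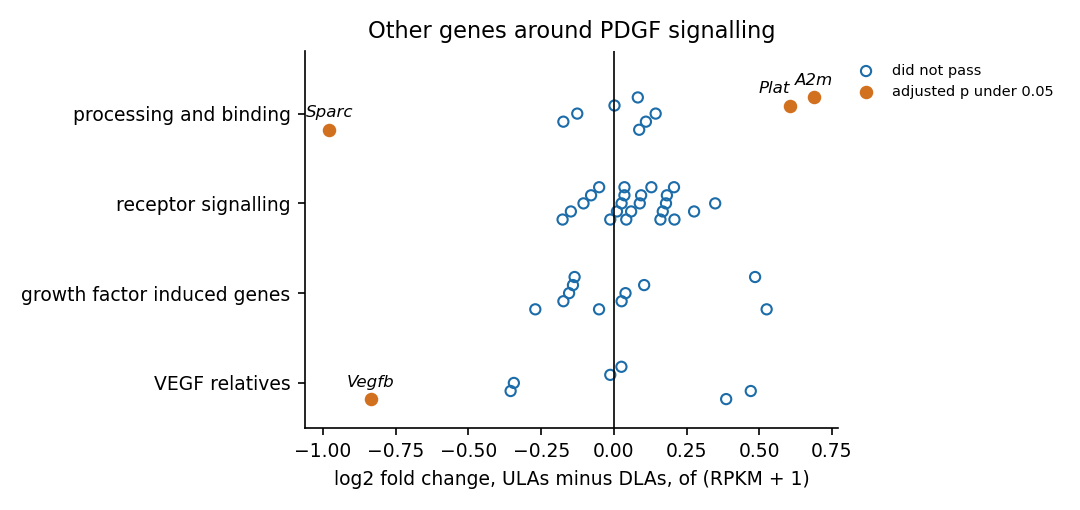
Log2 difference of (RPKM + 1) between ULAs and DLAs (x axis, positive where ULAs are higher) for each tested gene of 4 gene lists (y axis, points shifted vertically only for legibility). Filled points passed an adjusted p of 0.05, namely Plat and A2m on the ULA side and Sparc and Vegfb on the DLA side, and none of the 23 receptor signalling genes or the 11 tested genes that growth factors induce did.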

How the data were processed

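RNA of sorted cells was converted to cDNA with the SMART-Seq v4 kit and sequenced as single 36-base reads. The authors deposited RPKM values, cut to 2 decimals, with mRNA lengths. The submitters' processing notes name bcl2fastq 1.8.4, CASAVA 1.8.2 and build mm9, and the aligner and counting program are not given in the sources used here. Depth was the read number at which 99.9% to 100% of low values were whole multiples of 1 read within 0.01 RPKM (at most 72.2% for the next best). Rows with a mean of at least 1 RPKM entered a limma model of log2(RPKM + 1) on layer and brain (limma 3.58.1 under R 4.3.3, lmFit and eBayes with trend). The 2-sided p-values were adjusted by Benjamini-Hochberg over all 13999 rows. The fit was tested on simulated data. The smallest p of an exact permutation test is 0.1 with 3 libraries against 3 and 0.25 with 3 pairs.

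Libraries with the same replicate number deviated together (r of 0.42, 0.33 and 0.34 across genes, against −0.20 to −0.16 between different numbers), and the number was taken as the brain, as the authors paired the layers by brain. The members, gene lists and tests were chosen with earlier results of these data known. Named are the 6 members, list genes past the threshold, the 3 most abundant per list, the 5 rows most like Pdgfd, Pdgfrb and Pdgfa, and markers beside a member. The sum without Cnp and other genes named were chosen after their values were seen. In the oligodendrocyte list, 1 gene was left out and is not reported here. Coordinates are those of the table counted from 1, and promoter sequences come from RefSeq on GRCm38.p6, with no conversion between builds. Values were handled with pandas 2.3.3 and numpy 2.4.6, intervals with scipy 1.17.1 and figures with matplotlib 3.10.9.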

Additional observations from a re-analysis of the deposited data

How the results depend on the processing

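The sign of the log2 difference was the same for Pdgfa, Pdgfc, Pdgfd, Pdgfrb and Pdgfrl in all 9 alternatives. Dropping the replicate block, lifting the filter or raising the minimum mean to 5 RPKM cannot change an estimate in this design. Those alternatives therefore say nothing about the sign. The ranges were 0.07 to 0.35 for Pdgfa, 0.24 to 0.34 for Pdgfc, −2.40 to −1.68 for Pdgfd, 0.01 to 0.22 for Pdgfrb and −0.28 to −0.02 for Pdgfrl. The value for Pdgfd of −2.40 at a pseudocount of 0.1 was the only one that moved by more than the spread between brains. Without a replicate block, 23 genes were higher in ULAs and 18 higher in DLAs, with 1 call among the processing and binding genes (Sparc) and 0 among the VEGF relatives, and the Pdgfd estimate kept its value with an SE of 0.29 in place of 0.17. When rows of any level were tested (27963 rows, no filter), limma called 0 genes in each direction, 0 processing and binding genes and 0 VEGF relatives, against 2799 rows at an unadjusted p under 0.05. After a correction for mRNA length, 77 genes were higher in ULAs and 77 in DLAs, with 0 VEGF relatives called and 1 growth factor induced gene (Ier3, adjusted p = 0.049). ULAs held 43.9% of all calls, 57.3% after quantile normalization (138 and 103 genes) and 56.1% without the block. With a brain left out, 104 to 426 genes were higher in ULAs and 126 to 687 higher in DLAs, both highest without brain 3. The same fits called 1 to 3 processing and binding genes, fewest without brain 1, and 0 to 1 growth factor induced genes. The cause of these shifts was not tested. Of the list genes called, Sparc was called in 8 of 9 alternatives and lost its call with no filter (adjusted p = 0.3). Sparc was picked by the study on these same libraries, so that count is no independent evidence. Calls were lost for Plat and Vegfb in 3 of 9 alternatives and for A2m in 4 of 8. Pdgfd also was not called with no filter. Its other calls are not counted, because its difference chose the family. Depth limits Pdgfb, which had at most 3 reads in a library.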
